A study of Schistosoma mansoni with 6 samples.

Results

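Genes of the Wnt pathway were followed along the body of adult female *Schistosoma mansoni*, a parasitic flatworm. The genes were chosen by their annotation in the deposited table (Wnt, Frizzled, catenin, axin, dishevelled, adenomatous polyposis coli, groucho, transducin enhancer, wntless, casein kinase I, glycogen synthase kinase and van gogh), and no expression value entered the choice beyond a mean above 0. The rule found 37 genes among the 9947 genes with signal, in a table of 10831 genes. It found 0 genes for porcupine, TCF, low density lipoprotein receptor related proteins, prickle and strabismus under those words. Its wording also took in 2 subunits of casein kinase II, a separate kinase, and 2 catenins of cell adhesion, and these 4 genes are described last.

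The samples were tails, cut from the worm posterior to the ovary, and heads, cut anterior to it, from females recovered from mice 7 to 8 weeks post-infection. There were 3 libraries of tails and 3 of heads, made from pools of fragments in 3 rounds of RNA extraction, and which tail and head libraries shared a round is not stated. Tails hold most of the vitellaria, the organ that makes the yolk cells of the egg, while heads hold the suckers, the oesophagus and the main mass of the nervous system. No worm strain, treatment or mutation is named in the labels. The values are normalised read counts, that is, reads of a gene divided by a size factor of its library. The deposited table gave them only as the mean of the 3 libraries of a group, so whole reads of single libraries were solved from those means where they were low enough. The libraries carry no numbers in the table and are called a, b and c within each group, from the largest size factor to the smallest, so that the same letter in tails and heads does not pair them.

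The estimated depth on genes was 5.25 to 11.8 M reads in tail libraries and 25.4 to 31.1 M in head libraries, so low values were less precise in tails. A sum of 3 reads over a group corresponded to a mean of 2.16 in tails and 0.43 in heads. Organ markers that the study placed by in situ hybridisation are given as description only. The study took those genes from its own tail-enriched and head-enriched transcripts, so their direction was fixed and cannot check the labels. The 7 vitellarian markers summed to 759276 normalised counts in tails and 8119 in heads, and the 6 markers of the oesophageal gland to 790 in tails and 112567 in heads. Over 9452 genes with signal in both groups, the median log2 ratio of tails over heads was 0.00, while the group totals were 16.4 M in tails and 12.2 M in heads, a log2 ratio of 0.43. Libraries within a group also differed. In the head libraries a, b and c, 3 vitellarian markers with solved reads had medians of 0.036, 0.82 and 2.14 times the head mean. In bulk fragments of this kind, fewer cells of a type and less RNA per cell cannot be told apart.

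Wnt proteins are secreted signals that carry a lipid and leave the cell with the help of Wntless. They bind Frizzled receptors, and secreted Frizzled-related proteins can hold them away from those receptors. Inside the cell, dishevelled relays the signal to a complex of axin, adenomatous polyposis coli, glycogen synthase kinase 3 and casein kinase I that otherwise marks beta catenin for destruction, and groucho proteins repress the target genes in the nucleus. In planarians, which are free-living flatworms, regional expression of Wnt genes and of secreted Frizzled-related genes helps to set the head-to-tail axis. The roles given here for schistosome genes rest on annotation alone.

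The study cloned 1 member, the Wnt gene Smp_196930, as a riboprobe and placed its transcript in cells along the lateral margins of the female. It took this gene from its own head-enriched transcripts, so a large fold towards heads in these libraries was a condition of the choice. In the study's account, the staining began just behind the head and ran back to about the middle of the worm. The study also describes the protein as an apparent orthologue of a planarian Wnt whose gene is expressed in a posterior gradient. The primers are printed because they define the probe that was stained, and their place in the counted gene model was not checked. Both are written 5′ to 3′ in lower case, and no base is marked.
Smp_196930 forward primer: atgttttggctgtcacatcg
Smp_196930 reverse primer: ccactgttttacggcatgtct

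Of the 37 members, 27 had reads solved in all 6 libraries and could be tested. The other 10 were too abundant, with head means of 1366 to 6055 normalised counts, and are given by their group means. Tails were compared with heads by limma on log2(normalised count + 1), with p-values adjusted by Benjamini-Hochberg over 6313 genes, and a gene was called at an adjusted p under 0.05. Of the 27 genes tested, 11 (40.7%) were called lower in tails, against 37.3% of all genes tested. In the other direction, 4 (14.8%) were called higher in tails, against 26.5% of all genes tested, and 12 were called in neither direction. At an unadjusted p under 0.05, 17 of the 27 passed, and the share of all genes at that threshold is not given here. At the stricter adjusted threshold, 37.3% of all genes were already called lower and 26.5% higher, so 17 is not read as a result about the members. Tail and head libraries did not overlap for 16 of the 27 (59.3%), against 4559 of 6313 genes (72.2%). The share called lower was therefore near that of all genes. The median log2 ratio of the 37 members was −0.095, beside 0.00 for all genes with signal in both groups. The direction of small differences depended on the scaling. With the group totals made equal, 14 members were called lower and 1 higher, beside 3353 and 872 of all genes tested, which under the deposited scaling were 2357 and 1676.

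The folds were unevenly spread over the roles. Called lower in tails were 4 of 6 Wnt ligands, 2 of 2 secreted Frizzled proteins and 2 of 5 Frizzled receptors, while the other 5 of these 13 genes were called in neither direction. Among 11 tested genes of the cytoplasmic relay, 2 were called lower and 3 higher. Of all genes tested, 37.3% were called lower and 26.5% higher. The lower calls of the receptors and the higher calls of the relay were near those shares. The members were mostly close to equal, with 27 of 37 (73.0%) within 2-fold, against 61.9% of genes with signal in both groups. The 8 members beyond 4-fold were all lower in tails, and 7 of them were secreted ligands, secreted Frizzled proteins or a receptor.

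**Figure D1:**
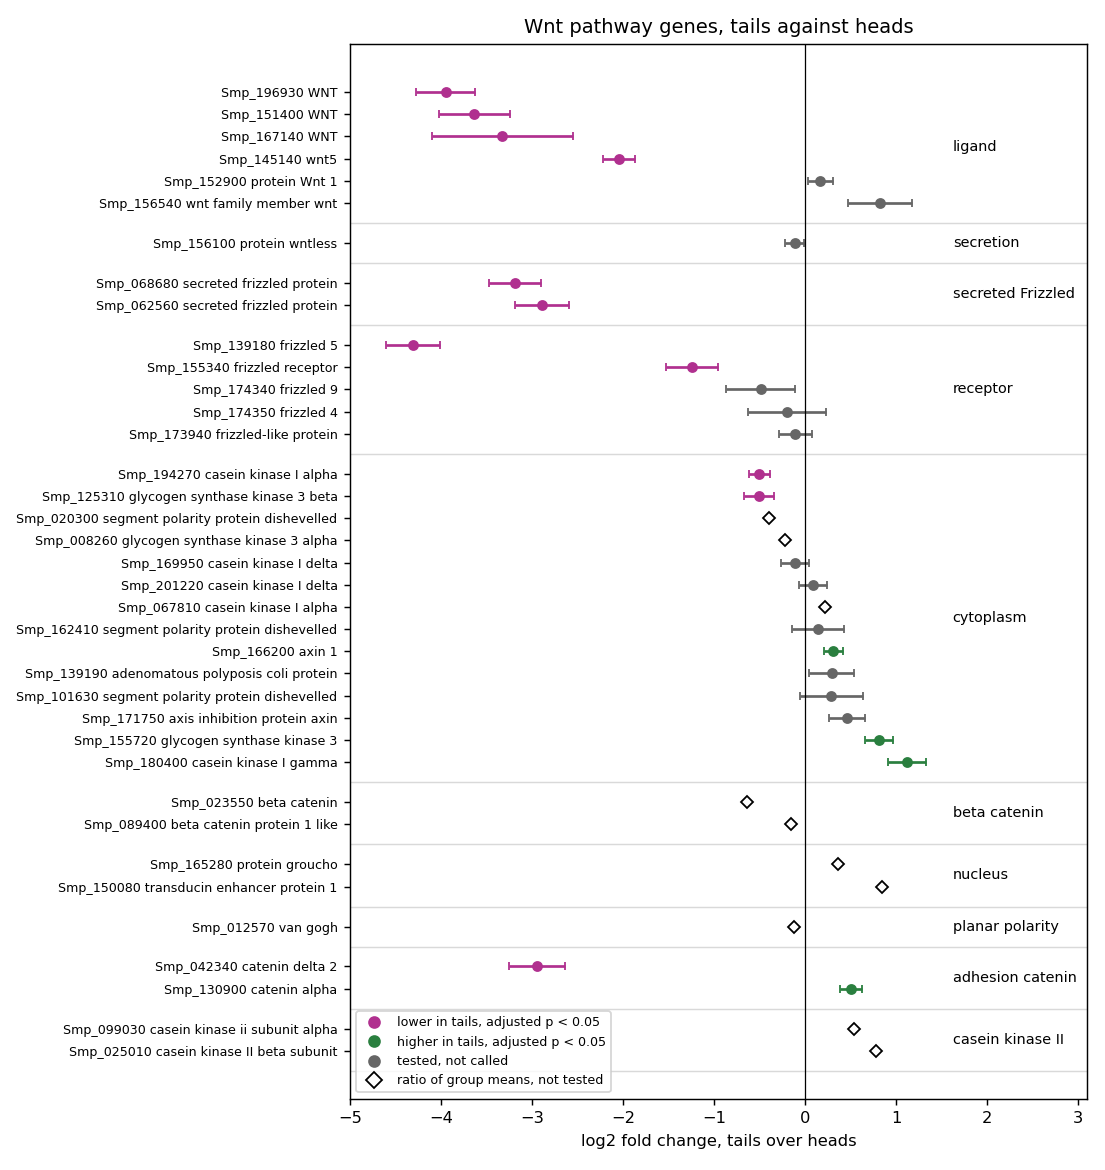
Log2 fold change of tails over heads (horizontal axis) for all 37 members, grouped by role. Circles are limma estimates with their standard errors, coloured by call, and open diamonds are ratios of group means of the 10 members that were not tested. The ligands, secreted Frizzled proteins and receptors reach from −4.31 to 0.82, and the tested cytoplasmic members from −0.51 to 1.12.

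Among the ligands, Smp_196930 (WNT) had the lowest ratio of group means. It had 36.2, 14.2 and 21.9 normalised counts in tail libraries a, b and c, against 330.1, 367.4 and 389.2 in head libraries a, b and c. Every tail library lay far below every head library, and the head mean was 15.04 times the tail mean. The log2 fold change was −3.95 ± 0.32 (SE, limma adjusted p = 7.0e-05), from 38 reads in tails and 2516 in heads. As the study cloned Smp_196930 for being head-enriched in these libraries, this fold is not independent of that choice. A second gene annotated only as WNT, Smp_151400, had 41.7, 14.2 and 15.6 normalised counts in tail libraries, against 258, 283.5 and 281.2 in head libraries. The groups were again wide apart, with a log2 fold change of −3.64 ± 0.39 (SE, limma adjusted p = 0.000204). For both genes, tail library a gave the highest tail value.

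The WNT gene Smp_167140 was the scarcest ligand by reads. It had 3, 0 and 3 reads in the tail libraries, that is 4.2, 0 and 9.4 normalised counts, against 34.5, 35.8 and 40.8 normalised counts in the head libraries. The log2 fold change was −3.33 ± 0.78 (SE, limma adjusted p = 0.00639), and it was −2.37 without tail library b, where no read was seen, −4.06 without tail library c and −1.74 with a pseudocount of 10. With 6 reads in tails and 257 in heads, the log2 ratio of summed reads, set against the summed size factors, was −3.09 with a 95% exact counting interval of −4.55 to −1.95, which covers counting error only. The direction was clear in all 3 tail libraries, but the size was loosely bound at this depth.

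Smp_145140 is annotated as wnt5, a family that in other animals often signals without beta catenin. It had 87.6, 65.2 and 68.9 normalised counts in tail libraries, against 299.5, 313.7 and 302.3 in head libraries. All tail values lay below all head values, with a log2 fold change of −2.04 ± 0.17 (SE, limma adjusted p = 8.5e-05). The ranges of 1 standard error of the 3 genes named WNT overlapped, and differences in fold between ligands were not tested.

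The remaining ligands were not lower in tails. Smp_152900, protein Wnt 1, had 721.7, 902.1 and 651.0 normalised counts in tail libraries, against 681.8, 695.2 and 635.8 in head libraries. These values overlapped, and the log2 fold change was 0.16 ± 0.14 (SE, limma adjusted p = 0.316). Smp_156540, a wnt family member, had 328.2, 170.2 and 197.2 normalised counts in tails, against 89.8, 201.8 and 109.9 in heads. Head library b lay above 2 of the tail libraries, and the log2 fold change of 0.82 ± 0.35 (SE, limma adjusted p = 0.0726) did not pass the threshold. Without head library b it was 1.16 (limma adjusted p = 0.023). The 6 ligands had a median log2 ratio of −2.54.

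Wntless (Smp_156100), the carrier that brings Wnt proteins to the cell surface, had 497.8, 567.4 and 544.6 normalised counts in tail libraries, against 573.6, 596.8 and 568.7 in head libraries. The tail values were all just below the head values, yet the log2 fold change of −0.11 ± 0.10 (SE, limma adjusted p = 0.364) did not pass.

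Both genes annotated as secreted frizzled protein were lower in tails. Smp_068680 had 30.6, 17.0 and 15.6 normalised counts in tail libraries, against 193.7, 189.0 and 192.9 in head libraries. Smp_062560 had 64.0, 28.4 and 43.8 in tail libraries, against 281.5, 367.8 and 331.6 in head libraries. Neither gene had a tail library near a head library. The log2 fold changes were −3.19 ± 0.29 for Smp_068680 (SE, limma adjusted p = 0.000109) and −2.89 ± 0.30 for Smp_062560 (SE, limma adjusted p = 0.000173).

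**Figure D2:**
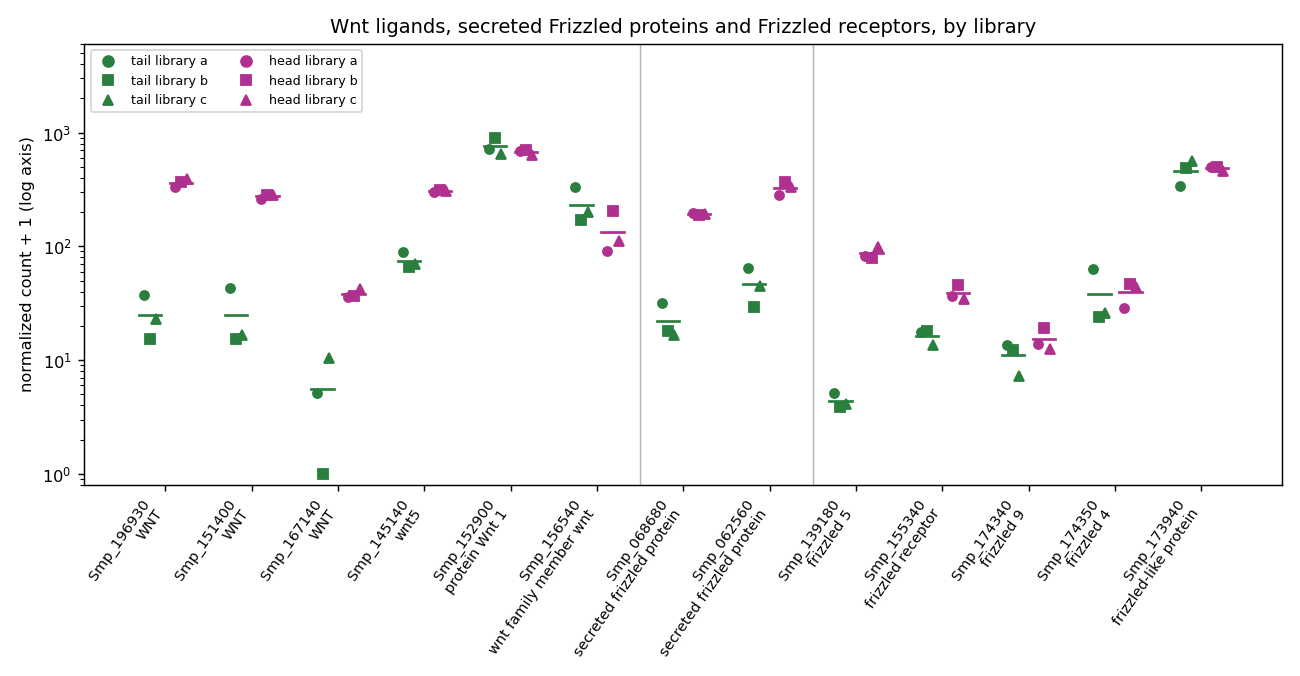
Normalised count + 1 on a log axis for 6 ligands, 2 secreted Frizzled proteins and 5 receptors (separated by grey lines). Symbols are single libraries, tails left of heads within each gene, and bars are group means, with letters that do not pair tails with heads. For 8 of the 13 genes all tail libraries lie below all head libraries, and for the other 5 the groups overlap. Over all genes tested, 72.2% had groups that did not overlap, in either direction.

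The receptors differed among themselves. Frizzled 5 (Smp_139180) had 3, 1 and 1 reads in tail libraries, that is 4.2, 2.8 and 3.1 normalised counts, against 80.8, 78.3 and 97.4 normalised counts in head libraries. Its ratio of group means was the lowest of the members, on 5 tail reads, with a log2 fold change of −4.31 ± 0.30 (SE, limma adjusted p = 4.8e-05) that was −2.83 with a pseudocount of 10, and a 95% counting interval of −6.19 to −3.33 around a log2 ratio of summed reads of −4.56. The gene named frizzled receptor, Smp_155340, was lower by less, with 16.7, 17.0 and 12.5 normalised counts in tails, against 35.7, 44.3 and 33.6 in heads (log2 fold change −1.25 ± 0.29, SE, limma adjusted p = 0.0063).

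The other Frizzled genes were not called. Frizzled 9 (Smp_174340) had 12.5, 11.3 and 6.3 normalised counts in tail libraries, against 12.9, 18.3 and 11.5 in head libraries, with a log2 fold change of −0.49 ± 0.38 (SE, limma adjusted p = 0.282) on 15 reads in tails. Frizzled 4 (Smp_174350) had 62.6, 22.7 and 25.04 in tail libraries, against 27.8, 46.0 and 42.7 in head libraries. Tail library a was above all head libraries there and the other 2 tail libraries were below them, so that the log2 fold change of −0.20 ± 0.43 (SE, limma adjusted p = 0.702) was −0.65 without tail library a and 0.062 without tail library b. The frizzled-like protein Smp_173940 had 337.9, 482.3 and 560.2 normalised counts in tail libraries, against 499.9, 494.7 and 462.1 in head libraries. Here tail library a was the lowest of all 6, and the log2 fold change was −0.11 ± 0.19 (SE, limma adjusted p = 0.628).

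The intracellular relay showed smaller differences in both directions. Dishevelled binds the activated receptor and is annotated in 3 genes. Smp_101630 had 196.1, 468.1 and 538.3 normalised counts in tail libraries, against 333.6, 293.3 and 278.3 in head libraries. Smp_162410 had 335.1, 697.9 and 757.4 in tail libraries, against 545.4, 490.0 and 496.7 in head libraries. For both genes tail library a lay below all head libraries, and tail libraries b and c lay above them. The log2 fold changes were 0.29 ± 0.35 for Smp_101630 (SE, limma adjusted p = 0.488) and 0.14 ± 0.29 for Smp_162410 (SE, limma adjusted p = 0.685). Without tail library a they were 0.74 (limma adjusted p = 0.00158) and 0.51 (limma adjusted p = 0.00234), so 1 library decided whether these genes were called. The third gene, Smp_020300, had group means of 1423 in tails and 1880 in heads and was not tested.

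Axin is the scaffold of the destruction complex. Axin 1 (Smp_166200) had 1036, 1146 and 1033 normalised counts in tail libraries, against 935.1, 884.6 and 777.9 in head libraries. The groups did not overlap, and the log2 fold change of 0.31 ± 0.11 (SE, limma adjusted p = 0.0349) passed narrowly, and it was −0.12 with the group totals made equal. It did not pass without tail library b (limma adjusted p = 0.105), head library b (0.0922) or head library c (0.154). The other axin gene, Smp_171750, had 762.0, 587.2 and 447.6 in tails, against 387.4, 483.2 and 409.8 in heads (log2 fold change 0.46 ± 0.20, SE, limma adjusted p = 0.0725), and it passed without tail library c (0.65, limma adjusted p = 0.0132). Adenomatous polyposis coli (Smp_139190), which holds beta catenin in the complex, had 1566, 933.3 and 729.3 in tails, against 847.6, 862.5 and 798.5 in heads. Its tail values spread to both sides of the heads, and its log2 fold change was 0.29 ± 0.25 (SE, limma adjusted p = 0.329).

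The glycogen synthase kinase 3 genes, whose product phosphorylates beta catenin, went in different directions. Smp_155720 had 1188, 1736 and 1709 normalised counts in tail libraries, against 874.7, 905.5 and 823.5 in head libraries. It was higher in all 3 tail libraries, with a log2 fold change of 0.81 ± 0.15 (SE, limma adjusted p = 0.00251) that was 0.38 with the group totals made equal (limma adjusted p = 0.0557). Smp_125310, the beta form, had 449.1, 346.1 and 291.1 in tails, against 506.2, 501.5 and 517.8 in heads. It was lower in all 3 tail libraries, with a log2 fold change of −0.51 ± 0.17 (SE, limma adjusted p = 0.0263). That call was lost without any one of tail libraries b and c and head libraries a, b and c (limma adjusted p of 0.0527 to 0.0832). The alpha form, Smp_008260, had group means of 1338 in tails and 1558 in heads and was not tested.

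Casein kinase I, whose alpha form primes beta catenin for glycogen synthase kinase 3, was annotated in 5 genes. The gamma form (Smp_180400) had the highest ratio of group means of the members, with 863.5, 1464 and 1518 normalised counts in tail libraries, against 578.3, 570.0 and 564.3 in head libraries (log2 fold change 1.12 ± 0.21, SE, limma adjusted p = 0.00217). The alpha gene Smp_194270 was lower, with 308.7, 289.4 and 284.8 in tails, against 409.3, 413.8 and 430.5 in heads (log2 fold change −0.50 ± 0.11, SE, limma adjusted p = 0.00522). In both genes all tail libraries lay to one side of all head libraries. The delta genes Smp_169950 and Smp_201220 were not called, and the alpha gene Smp_067810 was not tested.

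The genes annotated as beta catenin, groucho, transducin enhancer and van gogh were too abundant for solved reads in heads. Beta catenin (Smp_023550), the effector of the pathway and a partner of cadherins at cell junctions, had group means of 3880 in tails and 6055 in heads, a log2 ratio of −0.64, which was the lowest of the 10 untested members. The gene annotated as beta catenin protein 1 like (Smp_089400) had group means of 1566 in tails and 1750 in heads. That name does not establish a beta catenin of the pathway, and its role was not checked. The co-repressors groucho (Smp_165280) and transducin enhancer protein 1 (Smp_150080) had log2 ratios of 0.36 and 0.84, with means of 2188 and 2448 in tails, against 1700 and 1366 in heads. Van gogh (Smp_012570), a membrane protein of planar polarity, had means of 1263 in tails and 1374 in heads. Its tail libraries spread with an SD of 338 normalised counts (n = 3), which was more than the difference between the means. For these genes no test against heads was made, since only a mean was available there.

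The genes that the wording of the rule added were catenins of adhesion and casein kinase II. Catenin delta 2 (Smp_042340), which binds cadherins at the membrane, had 112.6, 65.2 and 43.8 normalised counts in tail libraries, against 543.8, 530.8 and 531.2 in head libraries. Its log2 fold change of −2.95 ± 0.31 (SE, limma adjusted p = 0.000184) was of the size seen for the secreted Frizzled proteins. Catenin alpha (Smp_130900), which links the cadherin complex to actin, was higher, with 478.3, 561.7 and 469.5 in tails, against 367.4, 355.0 and 338.8 in heads (log2 fold change 0.50 ± 0.12, SE, limma adjusted p = 0.00727), a difference of 0.076 with the group totals made equal. The casein kinase II subunits alpha (Smp_099030) and beta (Smp_025010) had untested log2 ratios of 0.53 and 0.78. Without these 4 genes, 10 of 25 tested members were called lower and 3 higher, beside 37.3% and 26.5% of all genes tested.

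Tail library a often gave the highest tail value for genes that were lower in tails. Of the 11 members called lower, 9 had their highest tail value in tail library a, against 1530 of the 2357 genes called lower (64.9%). The median ratio of tail library a to the mean of tail libraries b and c was 1.41 in the members called lower, 1.41 in all genes called lower and 1.07 in all genes tested. The markers of the oesophageal gland had a median of 0.59 times the tail mean in tail library a, and those of Mehlis' gland and the ootype, organs near the ovary, 0.53 times. Genes annotated as muscle and neuron had medians of 1.26 and 1.23 times the tail mean there, and tegument genes 0.956 times. The part of these tissues in the members' values was not tested. Without tail library a, 11 members were called lower and 7 higher. All genes then gave 2665 lower and 1874 higher calls among 6288 tested, so both counts rose over the whole table as well.

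**Figure D3:**
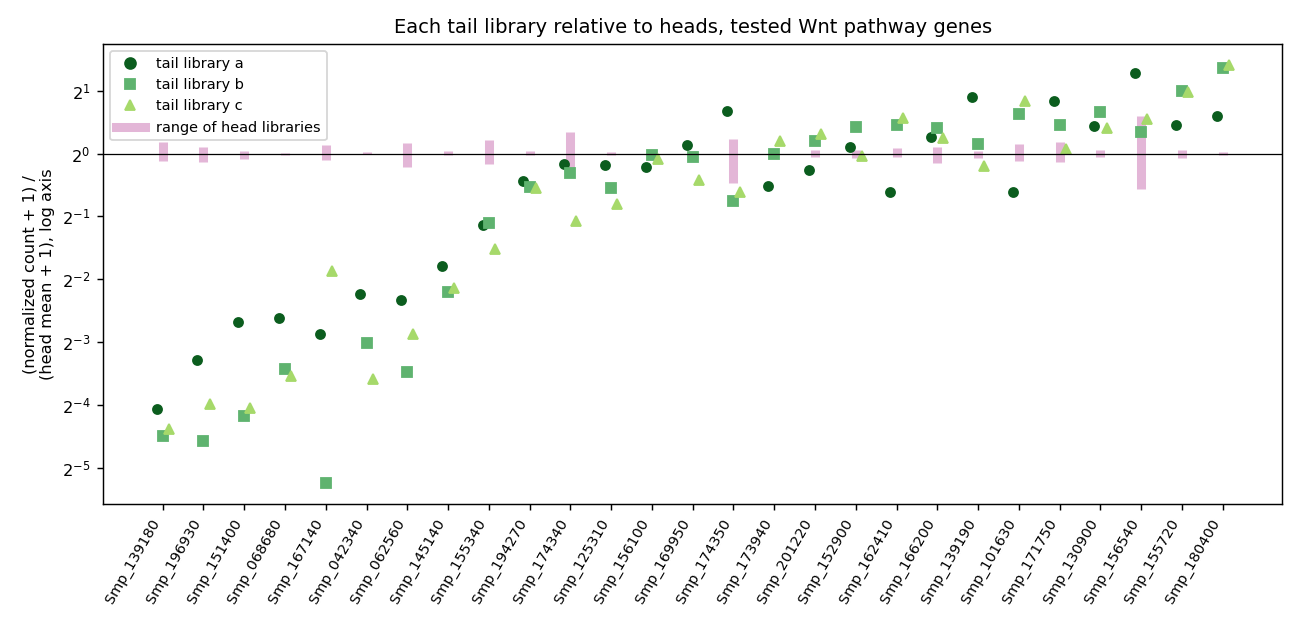
Normalised count + 1 of each tail library divided by head mean + 1, on a log axis, for the 27 tested members ordered by their ratio of group means. Symbols are tail libraries a, b and c, and bars are the range of the head libraries over the same mean. Tail library a is the highest tail library in 9 of the 11 members called lower, and the lowest in, among others, both tested dishevelled genes and in Smp_180400.

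Markers of tissues that both fragments hold were also more often called lower than higher in tails. Over all genes tested, the shares were 37.3% lower and 26.5% higher. Of 10 tested muscle genes, 6 were called lower in tails and 2 higher, and the 24 genes of that list had a median log2 ratio of −1.58. Among neuron genes, 19 of 27 tested were called lower and 4 higher, with a median of −1.03 over 34 genes. Among tegument genes, 14 of 22 tested were called lower and 2 higher, with a median of −0.98 over 55 genes. The muscle list summed to 45610 normalised counts in tails and 138166 in heads, and the neuron list to 12258 in tails and 17164 in heads. The tegument list summed to 92692 in tails and 123173 in heads, with 28919 of the tail sum from the tetraspanin Smp_155310. Single genes of these lists reached log2 ratios of group means as low as those of the lowest members, such as neuropeptide Y prohormone 1 (Smp_159950) at −5.68 among neuron genes and a tetraspanin (Smp_140130) at −5.90 among tegument genes. Others were far higher in tails, such as the tetraspanin Smp_155310 at 6.47, a titin (Smp_157020) at 3.12 and a synaptotagmin (Smp_206290) at 2.18. Whether muscle or nerve cells carried the transcripts of the members was not tested.

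**Figure D4:**
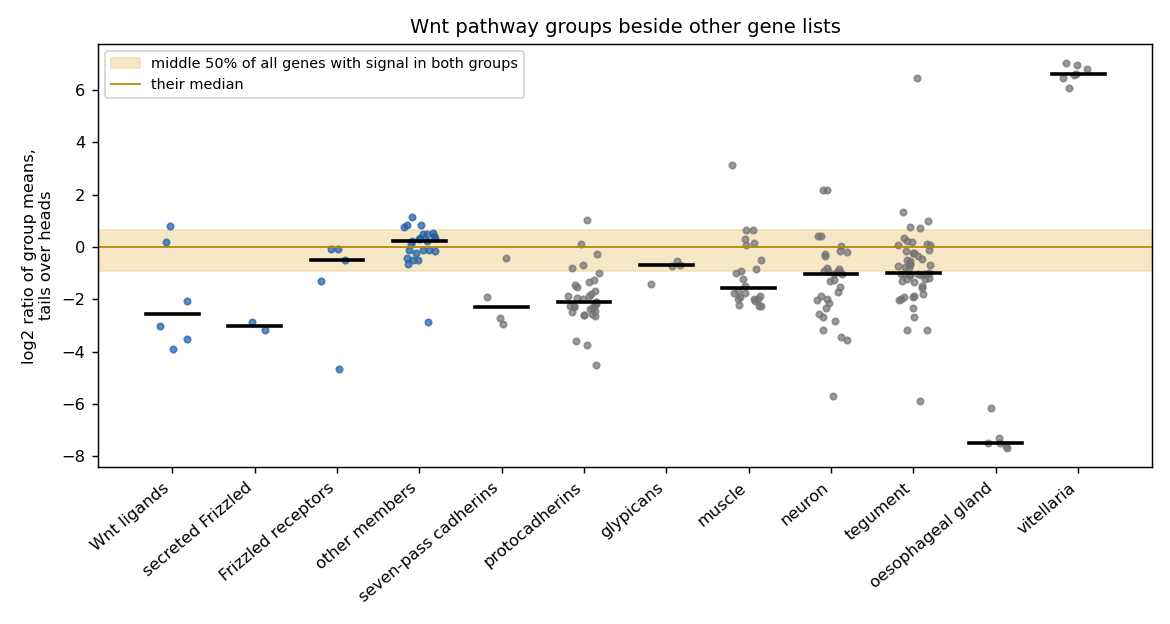
Log2 ratio of group means, tails over heads, for single genes (points) with the median of each list (black bars), and the middle 50% of all genes with signal in both groups as a band from −0.93 to 0.63. Blue points are the members and grey points are other lists, and the ligand median of −2.54 lies below the muscle median of −1.58 while secreted Frizzled proteins, frizzled 5 and frizzled receptor Smp_155340 also lie below the band. The 24 members outside these 3 roles sit inside it apart from catenin delta 2 below and a few above.

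A wider list was drawn by words outside the rule, among them cadherin, glypican, armadillo and notum. It held 69 genes with a median log2 ratio of −1.79, and 48 of its 60 tested genes were called lower in tails, against 37.3% of all genes tested, and 2 higher. Most of it was protocadherins and other cadherins, whose annotation names no role in Wnt signalling and which supplied most of the lower calls. Seven-pass cadherins, the flamingo family of planar polarity, were called lower in 3 of 4 genes, and Smp_149330 had group means of 47.6 in tails and 310.2 in heads (log2 fold change −2.79 ± 0.33, SE, limma adjusted p = 0.000293). Protocadherins were called lower in 27 and higher in 1 of 30 tested genes, and other cadherins lower in 14 of 16. Glypicans are cell surface proteoglycans that bind Wnt proteins, and 2 of 3 tested genes were called lower, glypican 5 (Smp_123780) with a log2 fold change of −1.51 ± 0.34 (SE, limma adjusted p = 0.00518) and glypican 4 (Smp_105200) with −0.55 ± 0.10 (SE, limma adjusted p = 0.00235). Of 7 proteins with armadillo repeats, 2 of 5 tested were called lower. Notum (Smp_015820), an enzyme that removes the lipid from Wnt proteins, had only 3.28 normalised counts in tails and 5.34 in heads, and its log2 fold change of −0.95 ± 0.70 (SE, limma adjusted p = 0.26) did not pass. A mitochondrial frataxin entered that list by spelling and was 1 of the 2 genes called higher.

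The pattern of Smp_196930 over the 6 libraries was compared with that of 5429 genes with solved reads and a mean of at least 20, by Euclidean distance of log2(normalised count + 1) centred on each gene. The nearest gene was Smp_054350, forkhead box protein D3, a transcription factor, at a distance of 0.24. It had 59.8, 28.4 and 43.8 normalised counts in tail libraries, against 580.6, 651.7 and 652.6 in head libraries. Other near genes were a Shaker potassium channel (Smp_194710) at 0.34, a hypothetical protein (Smp_075360) at 0.42 and protein lozenge (Smp_174320), a Runt-type transcription factor in flies, at 0.50. Among the members, Smp_151400 was nearest at rank 9, followed by frizzled 5 at rank 12 and the secreted Frizzled gene Smp_068680 at rank 24. These distances rest on 6 libraries that form 2 groups and describe likeness only.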

How the data were processed

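Tails and heads were compared with 3 stranded RNA-seq libraries each. The authors used STAR 2.5.0b for mapping, with sequence and gene models from WormBase ParaSite, and tested tails against heads with DESeq 1.22. The program that counted the reads and the name of the assembly were not given in the sources used here. Per the authors, the signal values they deposited are reads per gene divided by a library's size factor and averaged, 1 column for tails, 1 for heads and 1 over all libraries. Columns of single libraries numbered 0. The authors' own ratio, log2 ratio and p-values for tails against heads are also in the table and were not used.

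Whole reads were solved from each group mean by searching for whole numbers whose average, after division by 3 fitted size factors, matched every deposited digit, for tail means up to 2000 and head means up to 1000. A combination was accepted where its share of the probability over all fitting combinations was at least 0.99. That probability gave more weight to combinations whose 3 normalised counts lay close to their mean. This gave reads for 7774 of 8011 tail genes and 6920 of 6967 head genes in range, with size factors of 0.72, 0.35 and 0.32 in tails and 2.55, 2.35 and 2.08 in heads. The solution and the test were checked on simulated data. Genes with at least 10 reads over 6 libraries were tested with limma 3.58.1 (R 4.3.3), with a mean-variance trend, on log2(normalised count + 1). On that scale, the fold change of a low gene can differ from its ratio of group means in either direction. For frizzled 5 it was −4.31 beside a log2 ratio of −4.66, and for Smp_167140 it was −3.33 beside −3.03. As solved reads come from means, count models were not used. The p-values measure the spread between the solved reads of 3 extractions a group. Where several combinations fitted a mean, that spread rested in part on the weighting.

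All receptors, ligands and core components were named, and of casein kinases and other catenins those called and the extremes of fold. Genes like Smp_196930 were the 5 nearest, of which 1 is not reported here. Other genes with values were chosen after seeing them. The members, lists and tests were chosen with earlier results of these data known. Alternatives covered pseudocount, scaling, filters, trend, minimum fold and each library left out.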

Additional observations from a re-analysis of the deposited data

How the results depend on the processing

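With the 2 group totals made equal, which shifted tails by −0.43 on the log2 scale, 14 members were called lower in tails and 1 higher, the median log2 ratio of the 37 members was −0.52, and all genes gave 3353 lower and 872 higher, beside 2357 and 1676. Under it the sign turned for Smp_152900 (−0.26), Smp_201220 (−0.34), Smp_162410 (−0.29), Smp_166200 (−0.12), Smp_139190 (−0.14) and Smp_101630 (−0.14). Smp_155720 (0.38) and catenin alpha (0.076) lost their calls, as did axin 1 (Smp_166200, limma adjusted p = 0.358). Wntless, Smp_173940 and Smp_169950 (each −0.54) were called lower. The higher calls numbered 1 with a minimum log2 fold of 1 in size, for which no count over all genes is given here. They numbered 2 of 25 tested with a stricter share for accepting solved reads, beside 1584 of 6101 for all genes. That stricter share was chosen after seeing the data. Leaving out each library in turn gave 10 to 11 lower calls, 3 to 7 higher calls, a median of −0.12 to −0.06 for all members and −2.65 to −2.21 for ligands. Over all genes, the same fits gave 1877 to 2665 lower and 1349 to 1874 higher calls. The sign turned for Smp_174350 without tail library b (range −0.65 to 0.062), for Smp_173940 (−0.26 to 0.099) and Smp_139190 (−0.019 to 0.53) without tail library a, for Smp_169950 (−0.24 to 0.045) and Smp_201220 (−0.029 to 0.26) without tail library c, and for Smp_162410 (−0.077 to 0.51) without tail library b or c. Of 243 values of single members under these settings, 212 kept direction and call, 10 lost and 8 gained a call, and 13 turned sign. A value that turned sign was counted only there, also where a call was lost, as for axin 1. Beyond the scaling itself, the cause was not tested. No paired analysis was possible because the deposited columns carry no replicate numbers. Depth limited the folds of genes with few tail reads, and a pseudocount of 10 gave −1.74 for Smp_167140 and −2.83 for frizzled 5, beside −3.33 and −4.31.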
